A study of Homo sapiens with 9 samples.

Results

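The NPIP family (nuclear pore complex interacting protein) was examined as 10 rows of a gene count table of 35876 symbols: NPIPB3, NPIPB4, NPIPB5, NPIPB6, NPIPB9, NPIPB11, NPIPB12, NPIPB13, NPIPB15 and NPIPA1. The table has 22 rows whose symbol starts with NPIP, and the 10 rows held between 92.4% and 96.9% of the counts of all 22 in each library. The rows were selected on the counts of these libraries, in which NPIPB3 and NPIPB12 stood among the largest falls in the Cre group against the Flpo group, so their values are given as a description. NPIP genes lie in the core of a segmental duplication that spread along chromosome 16 during the evolution of great apes and humans, together with fragments of neighbouring genes such as SMG1 and PKD1. Their proteins are named for an association with the nuclear pore, the channel between nucleus and cytoplasm, and their coding sequences changed unusually fast among primates. Because copies are nearly identical, a short sequencing read often matches several of them, and a quantifier has to divide such reads among the rows.

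The libraries came from HEK293, a line of human embryonic kidney cells grown in culture, in 3 groups of 3 libraries from a series on a reversible knockout system controlled by chemicals. The genotypes are given as CC_Cas9, CC_Cas9_Cre and CC_Cas9_Flpo, called Cas9, Cre and Flpo here. All groups therefore share the element CC, which the labels do not explain, and the nuclease Cas9. Cre recombines DNA at loxP sites and Flpo at FRT sites, and the labels state neither a targeted gene, a chemical, a dose, nor whether a genotype was 1 clone. Nothing says that replicates were separate cultures, so the tests measure the spread between these libraries, which may be technical. The smallest library, Cre replicate 2, had a total estimated count of 213907 and the largest, Flpo replicate 1, of 8833491, and every Flpo total exceeded every other total. The extraction text of the labels mentions livers. The 7 hepatocyte markers summed to between 0.17 and 6.05 CPM (counts scaled to a common library total). The 10 HEK293 markers summed to 595 to 1380 CPM in Cas9, 527 to 1099 CPM in Cre and 1569 to 5326 CPM in Flpo. These sums came mostly from KRT8, KRT18 and VIM, with 44769, 21101 and 10204 counts over all libraries. NEFM, INA and PAX2 were low, with 26, 22 and 1 in all. The 5 fibroblast markers summed to 261 to 886 CPM in Cas9, 544 to 6382 CPM in Cre and 249 to 323 CPM in Flpo. In the same order, 4 blood cell markers summed to 9.46 to 19.99, 7.35 to 21.4 and 30.5 to 78.9 CPM. Most of that was CD68, with 1069 counts over all libraries, while HBA1 had 88, PTPRC 5 and HBB 2. The part of these markers in the results below was not tested. The gene with the most counts, AC010970.1, took 9.99% to 21.9% of a library in Cas9, 17.2% in Cre replicate 1, 1.04% and 1.51% in the other Cre libraries, and 0.591% to 3.35% in Flpo. By chi-square per degree of freedom over genes, which grows with depth, Flpo replicate 2 stood apart from the deeper Flpo replicates 1 and 3, at 261 and 275, while those differed by 28.6. Cas9 replicate 1 differed from Cre replicate 1 by 11.7 and from Cas9 replicate 2, of similar total to that library, by 25.7.

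The copies were first compared by sequence, since this sets how well reads can tell them apart. A stretch of 90 coding bases present in all 10 members (GENCODE 29 transcripts, GRCh38, the build the submitters' processing notes name) shows the similarity. It was picked as the gap-free window with the most positions that vary among members, 12 in all, so it is not a typical stretch. Capitals mark bases that differ from NPIPB5.

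NPIPB5: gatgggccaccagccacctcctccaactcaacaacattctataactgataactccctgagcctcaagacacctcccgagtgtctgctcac
NPIPB3: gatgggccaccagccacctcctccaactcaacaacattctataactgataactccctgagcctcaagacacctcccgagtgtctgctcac
NPIPB4: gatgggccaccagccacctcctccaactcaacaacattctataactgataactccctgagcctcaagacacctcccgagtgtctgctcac
NPIPB12: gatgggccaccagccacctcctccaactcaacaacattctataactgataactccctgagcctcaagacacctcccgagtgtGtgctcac
NPIPB13: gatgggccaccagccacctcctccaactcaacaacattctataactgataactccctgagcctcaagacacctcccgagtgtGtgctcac
NPIPB11: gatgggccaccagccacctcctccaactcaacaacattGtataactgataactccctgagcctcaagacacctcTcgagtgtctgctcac
NPIPB9: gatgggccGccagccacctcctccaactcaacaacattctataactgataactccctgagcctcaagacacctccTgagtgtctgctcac
NPIPB6: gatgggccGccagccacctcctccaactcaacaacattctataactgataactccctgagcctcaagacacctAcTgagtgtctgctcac
NPIPA1: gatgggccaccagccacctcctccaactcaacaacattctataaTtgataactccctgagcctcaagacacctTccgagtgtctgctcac
NPIPB15: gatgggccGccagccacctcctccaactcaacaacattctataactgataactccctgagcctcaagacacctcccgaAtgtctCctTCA

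NPIPB3 and NPIPB4 were identical to NPIPB5 over these 90 bases. NPIPB12 and NPIPB13 each differed from it at 1 base, NPIPB9, NPIPB11 and NPIPA1 at 2, NPIPB6 at 3 and NPIPB15 at 6. In NPIPB5 the stretch lies at chr16:22533709-22533798 on the plus strand.

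Over the 1260 aligned coding bases of NPIPB3 and NPIPB5, 99.92% were identical, which leaves 1 difference. The 61 bases around it show what a read would have to cover to tell these copies apart. Capitals mark the bases at which the 3 stretches differ. The base that differs between NPIPB3 and NPIPB5 is the second capital, at coding position 390 of the NPIPB3 transcript and 1038 of the NPIPB5 and NPIPB4 transcripts, counted from the first coding base.

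NPIPB3: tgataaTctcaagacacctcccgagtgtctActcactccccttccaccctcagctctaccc
NPIPB5: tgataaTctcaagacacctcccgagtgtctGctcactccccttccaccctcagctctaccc
NPIPB4: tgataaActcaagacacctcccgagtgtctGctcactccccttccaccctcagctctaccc

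NPIPB4 carries the base of NPIPB5 there and differs from both at the first capital. Coding identity was 99.38% between NPIPB4 and NPIPB5, 99.53% between NPIPB5 and NPIPB13, 99.22% between NPIPB12 and NPIPB13, 99.65% between NPIPB6 and NPIPB9, and 90.58% between NPIPA1 and NPIPB5. Of all 31-base words in the annotated transcripts of NPIPB12, 0% occurred in no other gene. That share was 1.97% for NPIPB3, 2.54% for NPIPB9, 3.65% for NPIPB13, 6.78% for NPIPB6, 9.47% for NPIPB5, 9.67% for NPIPA1, 12.2% for NPIPB4, 19.9% for NPIPB11 and 24.1% for NPIPB15. NPIPB5 held 97.7% of the words of NPIPB3, 91.4% of those of NPIPB12 and 91.8% of those of NPIPB13. In turn NPIPB3 held 50.4% of the words of NPIPB5, so their transcripts also differ outside the aligned coding bases. NPIPB3 and NPIPB12 thus had the lowest shares of words of their own, and counts of single copies are uncertain to that extent.

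**Figure D1:**
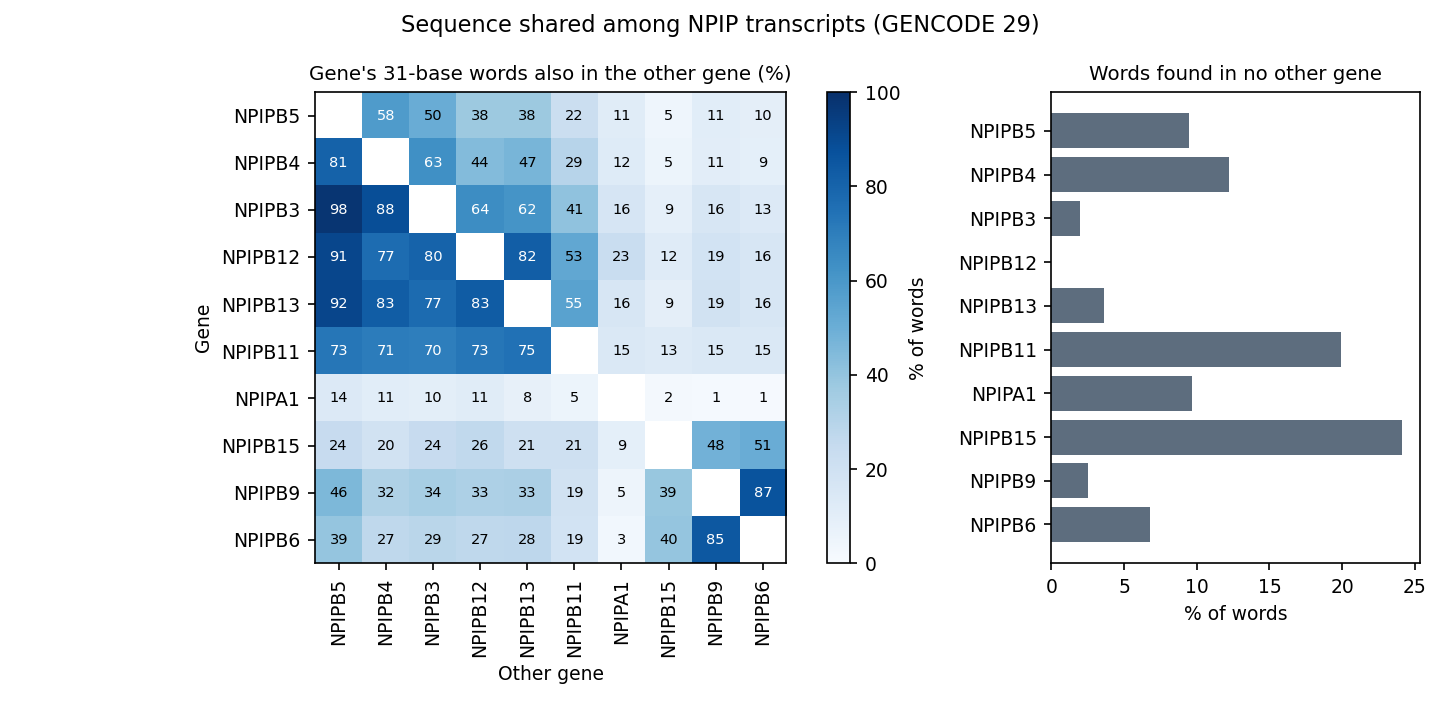
Sequence sharing among the 10 NPIP members. The heatmap gives the percentage of each row gene's 31-base transcript words that also occur in the column gene, and the bars give the percentage that occur in no other gene, from 0% for NPIPB12 to 24.1% for NPIPB15.

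The members are annotated as protein coding on chromosome 16 in GENCODE 29. NPIPA1 spans 14922802 to 14952060 on the plus strand, NPIPB3 spans 21402237 to 21448567 and NPIPB4 spans 21834569 to 21880827, both on the minus strand, and NPIPB5 spans 22479121 to 22536521 on the plus strand. NPIPB3, NPIPB4 and NPIPB5 overlap exons of the SMG1 pseudogenes SMG1P3, SMG1P4 and SMG1P1 on their own strand. NPIPB12 spans 29483642 to 29505999 on the minus strand, near NPIPB11 at 29381354 to 29404029, and NPIPB13 spans 30222937 to 30254510, both also on the minus strand. NPIPB6 (28342555 to 28363508, minus strand) and NPIPB9 (28751787 to 28772807, plus strand) lie between these blocks. NPIPB15, at 74377878 to 74392080 on the plus strand, is the only member on the long arm. RefSeq promoter windows (GRCh38.p14, 250 bases before to 50 after the start) were found for 5 members, NPIPA1, NPIPB3, NPIPB4, NPIPB6 and NPIPB12. Of the 10 pairs, 1 shared sequence: the windows of NPIPB3 and NPIPB4 had an identical run of 202 bases, of which the 152 bases before both starts are shown because these copies differ in counts below. RefSeq's starts for these windows lie inside both GENCODE gene spans, which reach further upstream, so the run precedes the start of a RefSeq transcript and not the outermost annotated start.

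NPIPB3: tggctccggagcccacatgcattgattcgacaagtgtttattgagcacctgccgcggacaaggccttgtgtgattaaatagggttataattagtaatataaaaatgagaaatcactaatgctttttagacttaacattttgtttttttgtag
NPIPB4: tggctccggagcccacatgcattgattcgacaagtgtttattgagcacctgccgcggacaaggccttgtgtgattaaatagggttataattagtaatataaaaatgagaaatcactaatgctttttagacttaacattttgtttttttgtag

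This run lies at chr16:21425477-21425628 for NPIPB3 and chr16:21857757-21857908 for NPIPB4, both on the minus strand.

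Estimated counts of NPIPB3 were 0, 1.20 and 113 in Cas9 replicates 1, 2 and 3, 0 in every Cre library, and 502, 65.5 and 508 in Flpo. NPIPB12 had 0, 65.8 and 134 in Cas9, 0 in all Cre replicates, and 438, 78.1 and 554 in Flpo. Both copies were listed at 0 in Cas9 replicate 1 as in Cre, and both were above 0 in Cas9 replicate 3 as in Flpo. In bulk RNA, fewer cells with a transcript and less of it per cell cannot be told apart. NPIPB5, which shares the most 31-base words with both, was above 0 in every library: 76.0, 90.6 and 194 in Cas9, 120, 31.03 and 72.7 in Cre, and 771, 163 and 1061 in Flpo. NPIPB4 was also above 0 throughout, with 64.5, 24.8 and 50.2 in Cas9, 150, 13.4 and 36.4 in Cre, and 120, 198 and 181 in Flpo. NPIPA1, of the other subfamily, had 35.5, 28.9 and 132 in Cas9, 73.7, 4.30 and 35.1 in Cre, and 394, 214 and 461 in Flpo. The largest library total was 41.3 times the smallest, so counts are set beside shares and scaled values below.

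The other members were low. NPIPB11 had 0, 0 and 17.0 in Cas9, 0 in Cre, and 55.8, 10.4 and 61.3 in Flpo. NPIPB13 had 0, 4.62 and 11.8 in Cas9, 3.30, 0 and 0 in Cre, and 77.2, 11.1 and 91.6 in Flpo. NPIPB15, the copy with the most sequence of its own, had 5.002, 5.83 and 9.00 in Cas9, 6.57, 0 and 4 in Cre, and 10, 16.6 and 12.5 in Flpo, and its scaled values overlapped between all groups. NPIPB6 was listed at 0 in Cas9 and Cre, with 2.27, 2.08 and 6.64 in Flpo. NPIPB9 had 0, 2.17 and 0 in Cas9, 0 in Cre, and 9.85, 8.11 and 6.36 in Flpo. Of the 62 member values above 0, 60 were not whole numbers (to within 1e-09), against 56.6% of all values above 0 in the table.

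The division of the family count among copies differed between libraries. NPIPB3 and NPIPB12 together held 0%, 29.9% and 37.4% of it in Cas9, 0% in each Cre replicate, and 39.5%, 18.7% and 36.1% in Flpo. NPIPB4 and NPIPB5 together held 77.6%, 51.6% and 37.0% in Cas9, 76.4%, 91.2% and 73.6% in Cre, and 37.5%, 47.1% and 42.2% in Flpo. Every Cre library thus lay above every Flpo library for that pair, and Cas9 replicate 1 lay among the Cre libraries. By group, the share of NPIPB5 was 37.3% ± 6.89 in Cas9, 48.9% ± 14.9 in Cre and 29.9% ± 7.72 in Flpo, and that of NPIPB4 was 18.1% ± 15.3, 31.5% ± 9.56 and 12.4% ± 11.7 (SD, n = 3 each). The share of NPIPA1 was 17.5% ± 3.98, 17.8% ± 7.88 and 20.02% ± 6.80, and its groups overlapped. NPIPB5 was the largest copy in 7 of 9 libraries. NPIPB4 was the largest in Cre replicate 1, at 42.4%, and NPIPA1 in Flpo replicate 2, at 27.9%. Shares are shares of counts and not levels per length.

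**Figure D2:**
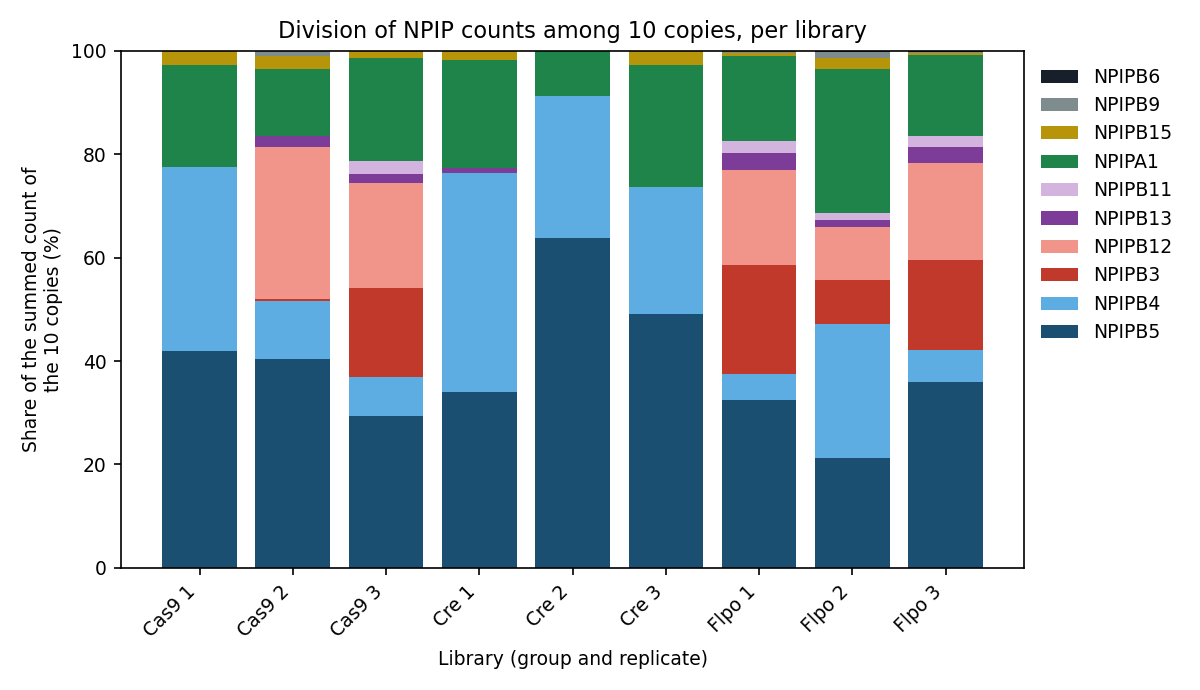
Share of the summed count of the 10 NPIP members (%, stacked bars) held by each copy in each of the 9 libraries. NPIPB3 and NPIPB12 take up 0% in the 3 Cre libraries and in Cas9 replicate 1, and between 18.7% and 39.5% in the Flpo libraries.

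The replicates of a group were not alike. NPIPB12 held 29.4% of the family count in Cas9 replicate 2 and NPIPB3 0.534% (Wilson 95% interval 0.0788 to 2.48%), while Cas9 replicate 3 had 20.3% and 17.1%. Flpo replicate 2 stood apart from the other Flpo libraries: NPIPB4 held 25.9% of the family count there, against 5.03% and 6.16%. The ratio of NPIPB4 to NPIPB5 ran from 0.16 to 1.25 over the libraries.

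Depth limits what a listed 0 can show. A floor of 3 counts corresponds to 0.847%, 6.16% and 2.02% of the family count in Cre replicates 1, 2 and 3, and to 1.66% in Cas9 replicate 1. At the lowest Flpo share, 8.55%, NPIPB3 would have had 30.3, 4.17 and 12.7 counts in the Cre replicates and 15.5 in Cas9 replicate 1. At its lowest Flpo share, 10.2%, NPIPB12 would have had 36.1, 4.96 and 15.1 counts in Cre and 18.4 in Cas9 replicate 1. Cre replicate 1 and Cas9 replicate 2 had similar totals, 1701730 and 1643166, and NPIPB12 was at 0 in the first and 65.8 in the second. NPIPB3 showed no such contrast in these libraries, with 0 and 1.20 counts, both under the floor. Intervals and floors leave out every error but that of counting, and so also the division of reads shared between copies. The labels name no molecular identifiers that would tell molecules from their PCR copies.

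The number of members above 0 was 4, 8 and 8 in Cas9, 5, 3 and 4 in Cre, and 10 in each Flpo library. The effective number of copies (the inverse of the summed squared shares, which is 10 if all members hold equal shares and 1 if 1 copy holds all) was 2.92, 3.57 and 4.92 in Cas9, 2.95, 2.04 and 2.79 in Cre, and 4.65, 4.80 and 4.45 in Flpo. Group means were 3.80 ± 1.02, 2.60 ± 0.484 and 4.63 ± 0.177 (SD, n = 3 each). The Cre and Flpo libraries did not overlap, while Cas9 spanned both. The Flpo libraries were also the deepest, and the part of depth in this measure was not tested. Among other duplicated families, NBPF (neuroblastoma breakpoint family) gave 5.86 ± 0.608, 3.97 ± 0.929 and 7.20 ± 0.845 in Cas9, Cre and Flpo, also without overlap between Cre and Flpo. GOLGA6 and GOLGA8 (golgin family copies) gave 4.63 ± 0.449, 3.76 ± 0.315 and 4.18 ± 2.45, LRRC37 4.43 ± 0.443, 4.91 ± 0.337 and 4.14 ± 0.596, and NOMO 2.24 ± 0.230, 2.24 ± 0.343 and 2.47 ± 0.240.

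**Figure D3:**
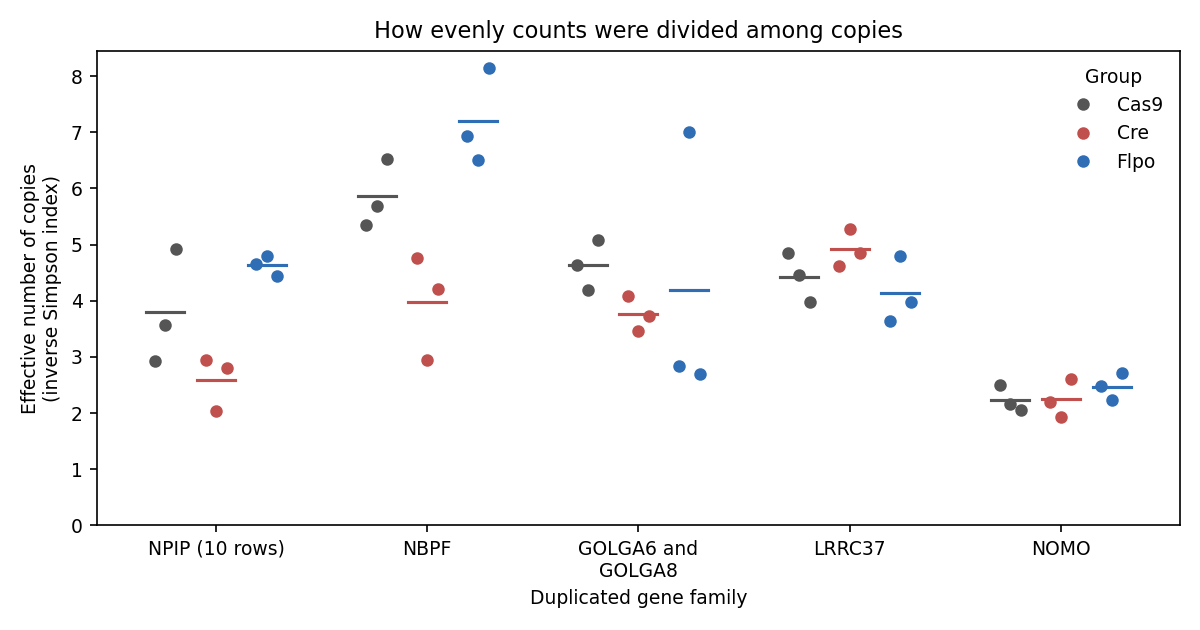
Effective number of copies per library (points, by group) for the NPIP members and 4 other duplicated families. For NPIP the 3 Cre points lie between 2.04 and 2.95, below the 3 Flpo points, while the NOMO and LRRC37 groups overlap.

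The sum over the members does not depend on how reads were divided within it, but reads are also shared with genes outside. Words found in NPIP genes alone made up 17.1% of those of NPIPA1, of which 70.1% occurred in PKD1P1, and 62.3%, 66.7%, 57.4% and 66.2% of those of NPIPB3, NPIPB4, NPIPB5 and NPIPB12. Scaled by TMM (edgeR's trimmed mean of M values), its sum was 149, 127 and 187 CPM in Cas9, 171, 179 and 126 CPM in Cre, and 406, 193 and 464 CPM in Flpo. Every Flpo library was above all others by this scaling, Flpo replicate 2 the least. Means were 154 ± 30.1, 159 ± 28.5 and 354 ± 143 CPM (SD, n = 3 each). On the log2(CPM + 0.5) scale the difference was 0.04 for Cre against Cas9, 1.12 for Flpo against Cas9 and -1.08 for Cre against Flpo. Without Flpo replicate 2 the last 2 were 1.51 and -1.47. Without TMM the sums were 182, 136 and 176 CPM in Cas9, 208, 228 and 166 in Cre, and 269, 154 and 349 in Flpo, the groups overlapped, and the differences were 0.28, 0.57 and -0.29. The scaling also moved the median over all tested genes, from -0.22, 0.05 and -0.34 with TMM to 0.03, -0.48 and 0.44 without, in the same order of comparisons. The 3 comparisons share libraries and are not independent of each other.

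The copies nearest to NPIPB5 in sequence (NPIPB3, NPIPB4, NPIPB5, NPIPB11, NPIPB12 and NPIPB13) held between 68.7% and 91.2% of the family count in every library. Their sum was 116, 106 and 147 CPM in Cas9, 132, 163 and 92.8 CPM in Cre, and 335, 133 and 387 CPM in Flpo. NPIPB4 and NPIPB5 alone summed to 116, 65.6 and 69.0 CPM in Cas9, 130, 163 and 92.8 CPM in Cre, and 152, 90.9 and 196 CPM in Flpo, with all groups overlapping.

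**Figure D4:**
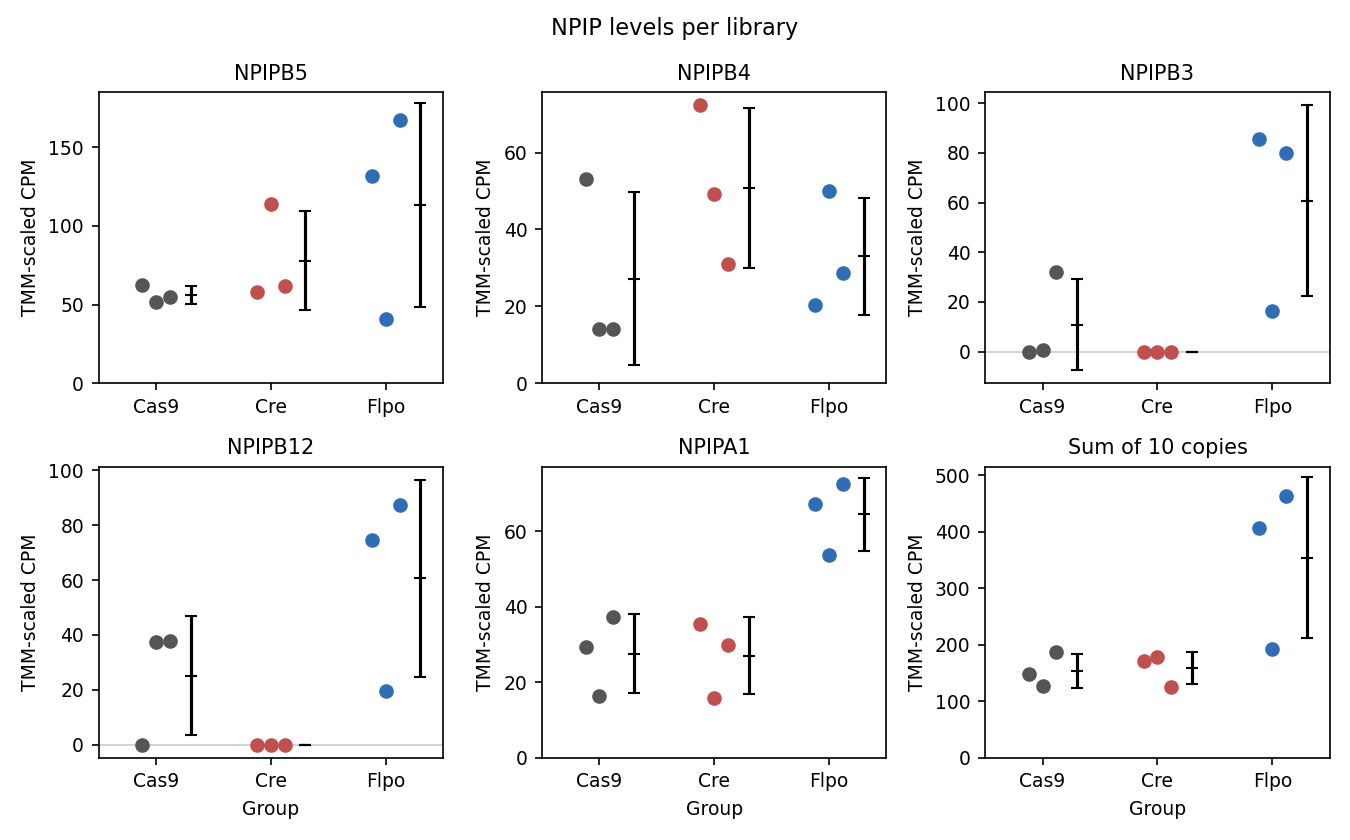
TMM-scaled CPM of 5 NPIP members and of the family sum in each library (points), with group mean and SD (bars). NPIPB3 and NPIPB12 are at 0 in all Cre libraries, whereas NPIPB4 and NPIPB5 overlap between groups.

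Across the table, edgeR's quasi-likelihood test with Benjamini-Hochberg adjustment tested 11905 genes, 5 of the 10 members among them (NPIPA1, NPIPB3, NPIPB4, NPIPB5 and NPIPB12). NPIPB6, NPIPB9, NPIPB11, NPIPB13 and NPIPB15 did not pass the filter on low counts. NPIPB3 and NPIPB12 did not pass it in the fit of Cre and Cas9 alone. They were thus tested through the Flpo libraries, where they are high. For Cre against Flpo, 2 members were called lower in Cre, NPIPB3 and NPIPB12, beside 14.3% of all tested genes called lower, 6.17% called higher and 20.5% called in either direction. Since this contrast chose the members, nothing is read from that count. It fell to 0 without Cre replicate 2, Cre replicate 3 or Flpo replicate 1, and in these fits 0% of all tested genes were called, with 4721, 3359 and 3233 at an unadjusted p under 0.05. It was 1 without Flpo replicate 3, beside 3.28% of genes, and 4 without Flpo replicate 2, beside 44.1%. DESeq2 called 1 member, NPIPB12, beside 33.4% of genes. With log2 total count as a covariate 0 members and 0% of genes were called, with 732 genes at an unadjusted p under 0.05. The loss of member calls in these fits thus went with fewer calls among all genes, except with DESeq2. A floor of 3 counts in each Cre library was on average 5.01 CPM. By listed counts, NPIPB3 in Cre was at least 12.1-fold below its Flpo mean of 60.7 CPM. NPIPB12 was at least 12.1-fold below its Flpo mean of 60.6 CPM. These bounds cover counting only and not the division of reads shared with other copies or other effects of depth. This contrast also chose both rows. Without Cre replicate 2, the smallest library, these bounds were 30.4 and 30.3. Without Cre replicate 1 they were 8.95 and 8.92, the lowest with any single library left out. NPIPB11 was at least 1.45-fold lower by that floor, or 3.63-fold without Cre replicate 2 and 1.07-fold without Cre replicate 1. NPIPB6 and NPIPB9, with Flpo means of 0.652 and 1.57 CPM, lay below the floor, so no fold is given. With log2 total count as a covariate, NPIPB3 and NPIPB12 differed by -1.72 ± 1.76 (SE) and -5.78 ± 3.59 for Cre against Flpo. Without it, both differed by -10.47, with SE 2.59 and 2.24. For Flpo against Cas9 they went from 2.39 ± 1.22 and 1.25 ± 1.01 to -2.59 ± 0.88 and -2.34 ± 1.83 with it. Depth and group cannot be told apart here.

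For Flpo against Cas9 no member was called, beside 0.227% of tested genes (27 genes). For Cre against Cas9 no member was called either, beside 0% of genes, with 879 genes at an unadjusted p under 0.05 and 4 called by DESeq2. Without the filter on low counts, NPIPB3 and NPIPB12 were called in Cre against Cas9, beside 0.201% of 25386 genes, and NPIPB3 in Flpo against Cas9, beside 4.6%. The Cre and Flpo libraries in these comparisons also chose the rows, so nothing is read from these calls either. No other alternative fit called a member in Cre against Cas9. In Cas9, NPIPB3 had 0, 1.20 and 113 counts, so its level there rests on replicate 3. Groups of TMM-scaled values did not overlap for 3 tested members in Cre against Flpo (NPIPB3, NPIPB12 and NPIPA1, all lower in Cre), beside 43.1% of tested genes, for 1 in Flpo against Cas9 (NPIPA1, higher in Flpo), beside 25%, and for 0 in Cre against Cas9, beside 9.86%. Without TMM, NPIPA1 in Cre replicate 1 lay slightly above Flpo replicate 2, so its Cre and Flpo groups overlapped.

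The tested members that kept counts in every library did not pass the test in any comparison. For NPIPA1 the log2 difference was 0.00 ± 0.49 (SE) for Cre against Cas9, 1.21 ± 0.50 for Flpo against Cas9 and -1.21 ± 0.51 for Cre against Flpo. Without TMM these were 0.25, 0.68 and -0.43, and with log2 total count as a covariate 0.41, 0.52 and -0.11. NPIPB4 gave 0.91 ± 0.64, 0.30 ± 0.63 and 0.62 ± 0.63, and the second became -0.29 without TMM. Without Cas9 replicate 1 the first was 1.83 and the second 1.21. The second was -0.09 without Cas9 replicate 2, -0.04 without Cas9 replicate 3 and -0.14 without Flpo replicate 2, so its direction was not stable. NPIPB5 gave 0.44 ± 0.55, 1.01 ± 0.54 and -0.57 ± 0.55, and the last became 0.24 without TMM.

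None of the other 12 NPIP rows was tested. NPIPP1, an unprocessed pseudogene that is transcribed, had the highest counts among them, with a sum over the libraries of 192 against 144 for the member NPIPB11. It had 0, 0 and 20.9 counts in Cas9, 0 in Cre, and 89.0, 10.1 and 71.7 in Flpo, and NPIPA2 was at 0 in every library. NPIPA3 ran from 0 to 36.1 counts, NPIPB14P from 0 to 15, NPIPB2 from 0 to 27.9 and NPIPA5 from 0 to 28.1.

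Genes carried along with NPIP in the chromosome 16 duplications were a list of 33, of which 23 were tested. For Cre against Flpo, 1 was called higher and 2 lower, 13.04% of the list beside 20.5% of all tested genes. The median log2 difference was -0.56 against -0.34 for all tested genes. RRN3P3 (a pseudogene of the polymerase I factor RRN3) was higher in Cre by 2.70 on the log2 scale (edgeR adjusted p = 0.0174). NOMO3 (a membrane protein of the Nodal modulator family) fell by 2.94 (edgeR adjusted p = 0.034), and was not called without TMM. SLX1B, a copy of a structure-specific endonuclease subunit, was called lower and listed at 0 in all Cre libraries. Without TMM the list had 4 higher and 1 lower and a median of 0.23, beside 0.44 for all genes. EIF3C, a subunit of translation initiation factor 3, differed by -0.05 between Cre and Flpo, and SMG1, a kinase of nonsense-mediated decay, by 1.29, neither called with TMM. NOMO1, NOMO2 and BOLA2B differed by -2.02, -1.80 and -1.99, none of them called.

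A further 2 near-identical pairs on chromosome 16, named after their values were seen, had a copy at or near 0 in the same libraries as NPIPB3. SLX1B had 0, 0 and 47.0 counts in Cas9, 0 in Cre, and 89.9, 103 and 345 in Flpo, while its copy SLX1A had 34.1, 84.8 and 126, then 84.1, 1.29 and 20.1, then 327, 42.1 and 218. SULT1A4 had 0, 0 and 46.4 in Cas9, 0.993, 0 and 0 in Cre, and 58.1, 15.03 and 81.1 in Flpo. Its copy SULT1A3 (both encode a sulfotransferase) had 54.0, 79.4 and 58.3, then 78.0, 18.1 and 37.5, then 208, 58.9 and 130. SLX1A in Cre replicate 2, at 1.29, lay under the floor of 3 counts. The pair EIF3C and EIF3CL of the same list did not have this pattern: EIF3CL had 42.4, 165 and 343 counts in Cas9, 157, 0 and 69.7 in Cre, and 429, 216 and 325 in Flpo.

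In families of other duplication cores, most tested rows were not called in Cre against Flpo, where 14.3% of all tested genes were called lower and 6.17% higher. Of 23 NBPF rows, 12 were tested, with 0 higher and 4 lower in Cre: NBPF1 by -2.69, NBPF3 by -3.02, NBPF10 by -2.75 and NBPF15 by -2.28 on the log2 scale. NBPF14, NBPF19, NBPF20 and NBPF9 differed by -1.36, -0.27, -0.15 and 0.71 and were not called. Without TMM 1 NBPF row was called, NBPF10. Of 37 GOLGA6 and GOLGA8 rows, 9 were tested, with 3 higher and 0 lower: GOLGA8A by 2.55, GOLGA8B by 1.37 and GOLGA6L1 by 3.08, all of them called without TMM as well. GOLGA6L9 and GOLGA8R differed by -0.70 and 0.82 and were not called. Of 17 LRRC37 rows, 10 were tested, with 1 higher (LRRC37A9P) and 2 lower, LRRC37A16P by -2.92 and LRRC37A4P by -2.03. LRRC37A2, LRRC37BP1 and LRRC37A7P differed by -0.82, 0.29 and 1.60 and were not called. Without TMM 3 LRRC37 rows were higher and 0 lower. Of 7 RGPD rows, 2 were tested and none was called, and none of 19 TBC1D3 rows was tested.

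Nucleoporins, the proteins of the pore for which the family is named, were a list of 32 with 29 tested. For Cre against Flpo, 0 were higher and 4 lower, which is 13.8% of the list beside 14.3% of all tested genes called lower, so the share was near the background. The median was -0.83 against -0.34 for all tested genes. The log2 difference was -3.88 for NDC1, a transmembrane ring protein, -3.02 for NUP54 of the central channel, and -2.82 for SEC13 and -2.09 for NUP37, both of the outer ring. Without TMM, 1 was higher (SEH1L) and 1 lower (NDC1), and the median was -0.05. The most abundant members, NUP62, TPR, NUP43, NUP155 and POM121C, differed by -0.75, -0.89, 0.10, -0.32 and -1.46 and were not called. In the other comparisons no gene of any of these lists was called.

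The genes whose log2 CPM across the 9 libraries was most like the family sum, among 7693 tested genes with a mean count of at least 50, were GHITM (Pearson r = 0.987), MAT2A (r = 0.986) and ANXA7 (r = 0.986). These are descriptions over libraries that differ in depth and group, with no test.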

How the data were processed

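RNA sequencing of 9 HEK293 libraries (3 groups of 3) was analysed from the authors' table of estimated counts per gene symbol. The authors deposited these expected (estimated) counts without normalization, and Salmon 0.14.1 and hg38 are named per the submitters' processing notes. The annotation, filters and use of strand are not given in the sources used here. The kits were TRIzol for RNA and TruSeq for libraries, per the labels' protocols.

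Counts were rounded and tested with edgeR 4.0.16 (R 4.3.3): quasi-likelihood test, TMM, default filter (minimum count 10, minimum total 15), all 9 libraries, threshold 0.05 on Benjamini-Hochberg adjusted p. Totals per library limit the precision, and a floor is 3 counts. Standard errors are the absolute log2 difference over the square root of edgeR's F. DESeq2 1.42.0, other scalings, no filter, a replicate block, a depth covariate and leaving out each library were alternatives. The code was tested on simulated data. Of the table's symbols, 35378 were in GENCODE 29, whose transcripts gave 31-base words and coding alignments (mafft 7.526, Python 3.11.15).

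The members and lists were chosen with earlier results of these data known. All members are named. Of each other list up to 5 rows with the highest mean count are named, and called rows were added after their values were seen. Similar patterns are the 3 tested genes with the highest correlation. Replicate numbers come from the titles. Replicates differed beyond sampling noise, with a lowest chi-square per degree of freedom of 10.8.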

Additional observations from a re-analysis of the deposited data

How the results depend on the processing

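Effective numbers of copies in Cas9 and Cre stayed within 1 SD under all alternatives run, of which scaling counts to the smallest total leaves shares the same but for rounding and so does not bear on depth. In Flpo they were 5.21 over every NPIP symbol and 5.54 by the Shannon form. Leaving out single libraries gave 3.24 to 4.24 in Cas9, 2.42 to 2.87 in Cre and 4.55 to 4.73 in Flpo. The family's log2 difference without TMM was 0.57 for Flpo against Cas9 and -0.29 for Cre against Flpo. Leaving out single libraries gave -0.09 to 0.20 for Cre against Cas9, 0.88 to 1.51 for Flpo against Cas9 and -1.47 to -0.83 for Cre against Flpo.

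For Cre against Cas9, 4 genes were called by DESeq2 and 51 without the low-count filter, which also called 2 members. For Flpo against Cas9, 1065 genes were called by DESeq2, 12 without TMM, 1169 without the filter (with 1 member), 0 in the fit of the 2 groups alone (2807 at an unadjusted p under 0.05) and 0 with log2 total count as a covariate (1791 unadjusted). Single libraries left out gave 0 to 2685 genes and 0 to 1 members, the 1 being NPIPB3 without Cas9 replicate 3 and NPIPB5 without Flpo replicate 2. For Cre against Flpo, 3976 genes were called by DESeq2 and 0 with the covariate (732 unadjusted), and single libraries left out gave 0 to 5559 genes and 0 to 4 members. Without TMM, 2039 of 2879 called genes were higher in Cre, against 735 of 2440 with it. Members called were 1 by DESeq2, 4 without the filter, 0 with the covariate and 0 with all NPIP rows summed into 1. With the replicate block, 6 genes were called for Flpo against Cas9 and 1568 for Cre against Flpo, with 2 members still called there. Deviations of same-numbered libraries correlated between -0.54 and 0.52. With few libraries per group that differ in depth, these values cannot decide whether the numbers pair them. The cause of these changes was not tested. The smallest total, 213907, limits what Cre replicate 2 can show.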
